A study of Mus musculus with 2 samples.

Results

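The loci described here are the genes that the mm9 GENCODE annotation types as nuclear rRNA or as misc_RNA, a class that holds 7SK, 7SL, Y RNAs and other small noncoding RNAs. They numbered 819 of 37310 annotated genes and were chosen by gene type alone, whatever their tags. Of these, 332 were rRNA loci, with 330 named for or matched to 5S rRNA and 2 to 5.8S rRNA, and 487 were misc_RNA loci. By name or sequence match the misc_RNA loci comprised 332 of 7SK, 14 of 7SL, 25 of Y RNA, 20 of RNase P RNA, 2 each of RNase MRP, vault and telomerase RNA, 1 each of NRON, HAR1F and the CPEB3 ribozyme, and 87 without a match. Most are copies dispersed through the genome. Each locus was examined for RNA fragments (tags) recovered with Mbnl2, a muscleblind-like RNA binding protein, from quadriceps muscle by HITS-CLIP, in which UV light links protein to RNA in powdered frozen tissue, RNase A trims the RNA, and the fragments purified with the protein are sequenced. Muscle of wild-type mice (WT) was compared with muscle of mice homozygous for a loss of *Mbnl1* (*Mbnl1* KO), to ask whether Mbnl2 occupies more RNA when its paralogue is missing. All mice were 15 to 16 weeks old and the labels give C57BL/6 as the strain, whereas the methods describe the compound knockouts as C57BL/129. The methods name the *Mbnl1* allele ΔE3, a germline deletion that is not confined to muscle fibres. Material from 3 mice per genotype was merged into 1 table each. The methods give RNase A at 38.6 U/ml (high) and 0.0386 U/ml (low) and do not state from which of these the sequenced libraries came.

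5S rRNA is a component of the large ribosomal subunit, is transcribed by RNA polymerase III and travels to the subunit bound to the ribosomal proteins Rpl5 and Rpl11. 5.8S rRNA, made by RNA polymerase I, pairs with 28S rRNA in the same subunit. 7SK RNA holds the elongation kinase P-TEFb (Cdk9 with Ccnt1 or Ccnt2) in an inactive particle with Larp7, Mepce and Hexim1, and 7SL RNA is the scaffold of the signal recognition particle, which brings ribosomes that make secreted proteins to the endoplasmic reticulum. Y RNAs are bound by the Ro60 protein (Trove2) and by La (Ssb). Muscleblind-like proteins bind RNA through zinc fingers and prefer the words TGCT or TGCC or CGCT or CGCC (written here as DNA), and RNase A cuts after pyrimidines.

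A stretch of 7SK and the Y RNAs Rny1 and Rny3 are shown 5′ to 3′ as read from the mm9 genome. The sequence of 5S, whose loci took most of the tags, is not reported here. Capitals mark the window of each RNA that carried most tags, defined as the run of positions around the summit covered at no less than 50% of its height, after the profile of each genotype was divided by its total coverage and the 2 were added, so that both count equally. Adding tag numbers instead would extend the 7SK window in the 3′ direction and put the 7SL summit at nucleotide 243. Windows of 5S and 7SL were defined in the same way, on n-R5s100 (minus strand, chr8:126062686-126062804), whose sequence 32 loci of the chromosome 8 array share, and on AC099934.1, at the place of Rn7s1 (plus strand, chr12:70260282-70260578). The 7SK stretch holds nucleotides 138 to 281 of the locus at the place of Rn7sk (minus strand, chr9:78023160-78023303). Rny1 (minus strand, chr6:47738068-47738179) and Rny3 (plus strand, chr6:47731623-47731724) encode Y RNAs.
7SK: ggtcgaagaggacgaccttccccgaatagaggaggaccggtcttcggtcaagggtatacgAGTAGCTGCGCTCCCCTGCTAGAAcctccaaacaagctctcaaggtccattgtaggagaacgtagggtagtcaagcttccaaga
Rny1: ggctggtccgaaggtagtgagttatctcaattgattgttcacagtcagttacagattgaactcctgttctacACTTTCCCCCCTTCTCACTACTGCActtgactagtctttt
Rny3: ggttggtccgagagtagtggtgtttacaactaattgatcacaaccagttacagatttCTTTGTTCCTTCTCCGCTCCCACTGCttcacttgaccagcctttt

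The WT table listed 343554 tags built from 5176203 reads, and the one for *Mbnl1* KO 476543 tags from 50329234 reads, or 9.72 times as many reads. Ratios below divide each count by the tags of its table, which multiplies a raw *Mbnl1* KO/WT ratio by 0.721, and each carries a 95% interval from the exact Clopper-Pearson limits of the *Mbnl1* KO share. With 1 table per genotype there is no spread between mice and no test. The intervals cover counting error only, PCR reads have no molecular identifiers, and the comparison is one of libraries. The intervals treat each tag as separate and are too narrow where 1 sequence is listed as several tags. A library from muscle without Mbnl2 or without antibody was not analysed here, and neither were RNA levels, so tags were set against neither. Fewer cells of a type and less RNA per cell cannot be told apart in such tissue. All 10 skeletal muscle marker genes had tags in both tables (983 in WT and 3378 in *Mbnl1* KO), while the 4 adipocyte markers together had 2 and 23 and the 4 globin genes 5 and 6. Markers of fibroblasts (186 and 774), endothelium (37 and 87), macrophages (15 and 18) and Schwann cells (6 and 14) had tags as well, and their part in the results was not tested. Tags with 70% or more of one base (single-base tags) made up 44.0% of WT and 17.0% of *Mbnl1* KO tags on assembled chromosomes but only 8 and 7 tags at the loci described here, and their part in the scaling is given with the other settings. The *Mbnl1* gene body itself had 100 WT and 452 *Mbnl1* KO tags, which does not check the deletion since the rest of the gene is still there.

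Over all 819 loci, 886 WT and 4768 *Mbnl1* KO tags were counted on the strand of the locus, which is 2579 and 10005 per 1000000 tags, or 0.258% and 1.00% of each table. The *Mbnl1* KO/WT ratio was 3.88 (3.61 to 4.17). It was smaller, and still above 1, with single-base tags left out (2.67, 2.48 to 2.87), by distinct sequences (2.31, 2.02 to 2.65), with 1 tag kept per 5′ position (2.26, 2.07 to 2.47) and scaled to tags on protein-coding exons (1.40, 1.30 to 1.51). Few loci held the tags. A tag was found at 232 loci in at least 1 genotype and at none of the other 587, and 88 reached 10 tags over both tables. 5S loci took 79.8% of these WT tags and 85.0% of these *Mbnl1* KO tags, and 7SK loci 13.4% and 11.6%. The ratio was 4.01 (3.70 to 4.34) at rRNA loci, with 735 WT and 4085 *Mbnl1* KO tags, and 3.26 (2.73 to 3.92) at misc_RNA loci, with 151 and 683. Reads gave a smaller difference than tags: 16335 WT and 220817 *Mbnl1* KO reads lay behind these tags, 0.316% and 0.439% of the reads of each table and a reads ratio of 1.39.

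**Figure D1:**
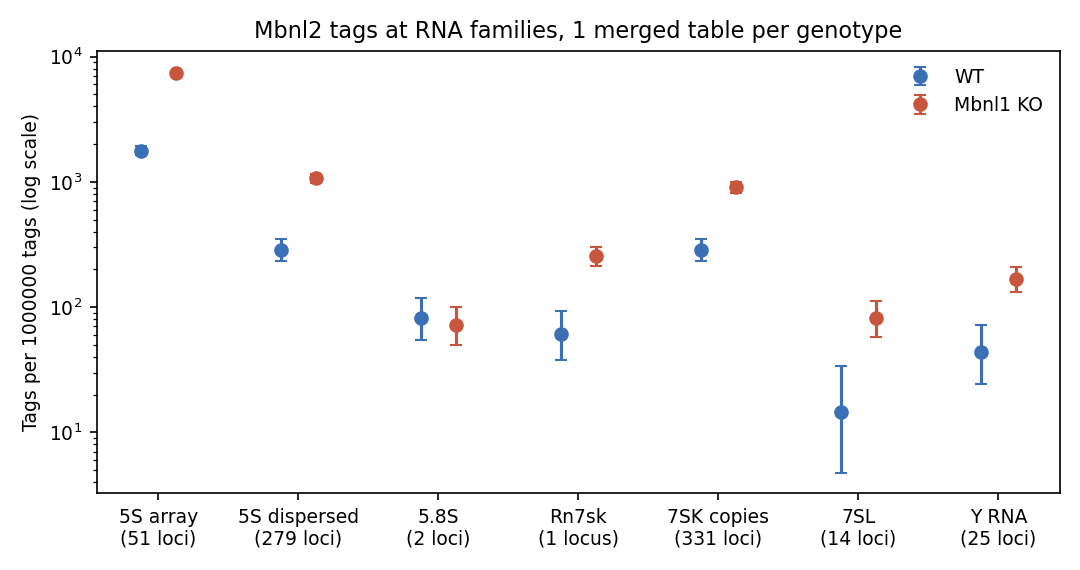
Tags per 1000000 tags of the table (log axis) at each RNA family in WT and *Mbnl1* KO muscle, 1 merged table per genotype. Bars are 95% Clopper-Pearson intervals of counting error. *Mbnl1* KO lies above WT at each family plotted except 5.8S, where the values were 81.5 in WT and 71.3 in *Mbnl1* KO.

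The loci were set beside the rest of the annotation by counting those that differed at least 2-fold. Of 7206 annotated genes with at least 10 tags over both tables, 2852 (39.6%) were at least 2-fold higher in *Mbnl1* KO and 501 (6.95%) at least 2-fold lower, with a median ratio of 1.68. Of the 88 loci described here that reached 10 tags, 84 (95.5%) were at least 2-fold higher, 0 were 2-fold lower, and the median ratio was 4.21. The counts for all genes and for these loci used the scaling to all tags of the table. They were not repeated with another scaling. The 51 copies of one 5S array share almost all their tag sequences, so they are not independent. Outside the array, 34 of 38 loci (89.5%) were at least 2-fold higher, with a median of 3.91. By family these were 17 of 18 dispersed 5S loci, 13 of 14 7SK loci, both 7SL loci, both Y RNA loci and neither 5.8S locus. Of the snRNA and snoRNA loci that reached 10 tags, 7 of 8 and 6 of 9 were at least 2-fold higher too. The 4 rRNA and misc_RNA loci that were not were the 5.8S loci 5_8S_rRNA (ratio 0.601) and n-R5-8s1 (0.95), the 5S locus n-R5s162 (1.26, 0.321 to 5.88) and a 7SK copy on chromosome 14 (1.85, 0.739 to 5.25), all with intervals that include 1. The minimum of tags can only be met through the richer table at some loci, so these shares describe the loci that met it and not all 819. The number past 2-fold also depends on the scaling, since scaling to tags on protein-coding exons divides every ratio by 2.77. With that scaling the 51 array copies stood at 0.845 to 3.12. Of these, 50 were above 1, and 7 had intervals above 1.

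The 5S array lies on the minus strand of chromosome 8, from 126062686 to 126147645, where 51 loci of 109 to 119 nt follow each other at a median spacing of 1697 nt. It held 609 WT and 3544 *Mbnl1* KO tags, 1773 and 7437 per 1000000, with a ratio of 4.20 (3.85 to 4.58). Every copy had tags in both tables. WT copies ranged from 1 to 19 tags with a median of 13, and *Mbnl1* KO copies from 6 to 86 with a median of 75. All 51 copies were higher per 1000000 tags in *Mbnl1* KO, by 2.34 to 8.65 times, and 49 of the intervals lay above 1. The copies share tag sequences and are not replicates: 114 distinct sequences lay behind the WT tags and 276 behind the *Mbnl1* KO tags. Intervals that treat each listed tag as separate are therefore too narrow here. The count of 49 also depended on the setting. Scaled to tags on protein-coding exons, the array as a whole stood at 1.51 (1.39 to 1.65), single copies at 0.845 to 3.12, and only 7 of the 51 intervals lay above 1. With tags of at least 2 reads 28 did, and the array gave 2.98 (2.58 to 3.46). Tags were spread evenly over copies of the same sequence. The 32 copies identical to n-R5s100 had 9 to 19 WT tags (SD 2.37) and 68 to 86 *Mbnl1* KO tags (SD 4.65), and the plot of tags along the array shows a level band in each genotype. The copy with the most tags, n-R5s113 (126084788 to 126084906), had 19 WT and 81 *Mbnl1* KO tags and a ratio of 3.07 (1.85 to 5.37). At n-R5s143 the tags were 13 and 85 (4.71, 2.61 to 9.21), and at n-R5s146 9 and 86 (6.89, 3.46 to 15.6). Scaled to exon tags the interval includes 1 at n-R5s113 (1.11, 0.666 to 1.94) and n-R5s143 (1.70, 0.943 to 3.32) but not at n-R5s146 (2.48, 1.25 to 5.62). With tags of at least 2 reads it includes 1 at n-R5s113 (2.13, 0.945 to 5.64) and n-R5s143 (1.60, 0.689 to 4.31). These copies have the same sequence, so the difference between their ratios is not a difference between RNAs.

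**Figure D2:**
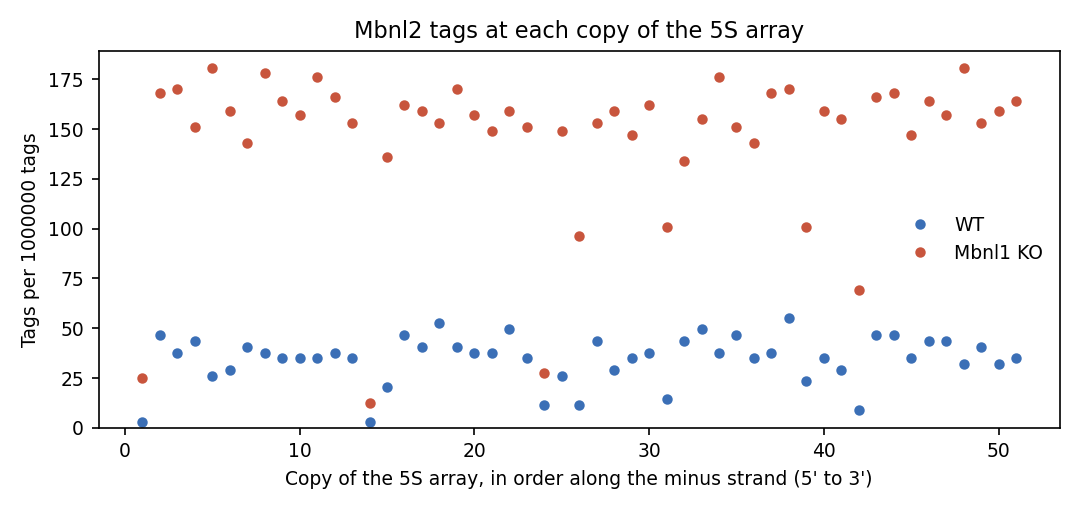
Tags per 1000000 tags at each of the 51 copies of the 5S array, in order along the minus strand, in WT and *Mbnl1* KO muscle (1 merged table each). The *Mbnl1* KO points lie mostly in one band above the WT band, apart from 7 of the 8 copies whose window differs in sequence, and every *Mbnl1* KO point lies above the WT point of the same copy, which holds for 50 of 51 copies when scaled to exon tags.

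The copies that stood below the band were among those whose window differs from that of n-R5s100. The exact 30-nt window was present in 43 array copies, which had 9 to 19 WT tags and 64 to 86 *Mbnl1* KO tags. The 8 array copies without it had 1 to 8 WT tags and 6 to 65 *Mbnl1* KO tags. The same single difference, inside the window, separated n-R5s125 (4 WT and 46 *Mbnl1* KO tags), n-R5s120 (5 and 48) and n-R5s112 (8 and 48) from n-R5s100. n-R5s136, with 1 other difference in the window, had 7 and 65, and its *Mbnl1* KO tags overlapped the range of copies with the window. n-R5s109, with 3 differences, had 3 and 33, and n-R5s127, with 8, had 4 and 13, and both have differences in the window. Copies with differences outside the window stayed in the band, such as n-R5s118 (1 difference, 17 and 74) and n-R5s114 (5 differences, 13 and 80). The 2 copies of 109 nt, 5S_rRNA at 126147537 to 126147645 and AC141881.2 at 126125472, had 1 and 12 tags and 1 and 6. The window was chosen on these tags and a tag is placed by its sequence, so this is a description of where tags could be placed. *Mbnl1* KO was higher at copies of either kind, with summed tags of 576 and 3273 at copies with the window (ratio 4.10) and 33 and 271 at those without it (5.92).

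The other 279 5S loci lie outside the array, and 69 of them had a tag. Together they held 98 WT and 507 *Mbnl1* KO tags, with a ratio of 3.73 (3.00 to 4.68) by tags. Scaled to tags on protein-coding exons the ratio was 1.35. The place of these loci relative to the array changed with the count. Distinct sequences gave 3.10 (2.39 to 4.08) outside the array and 1.81 (1.45 to 2.28) in it, whereas tags with *Mbnl1* KO reads thinned to the WT number gave 2.73 (2.06 to 3.63) outside and 4.47 (4.04 to 4.94) inside. No order between them is read from this. Only 2 of them carry the exact window, and these were the 2 with the most tags. n-R5s193 (plus strand of chromosome 4, 149191841 to 149191949) had 12 WT and 73 *Mbnl1* KO tags and a ratio of 4.39 (2.36 to 8.87), and n-R5s156 (plus strand of chromosome 7, 106646228 to 106646332) had 10 and 40 (2.88, 1.42 to 6.47). The remaining 277 loci had 0 to 6 WT and 0 to 39 *Mbnl1* KO tags each. Among these, n-R5s28 (plus strand of chromosome 17, 47985783 to 47985901) had the highest ratio of all loci with 10 tags, 14.1 (3.64 to 120), on 2 WT and 39 *Mbnl1* KO tags. At the other end n-R5s162 on chromosome 6 had 4 and 7.

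Along the 5S RNA the tags of both genotypes covered the same stretch. Of the 5S tags, 634 WT (89.7%) and 3593 *Mbnl1* KO (88.7%) matched the n-R5s100 sequence or its flanks exactly and could be placed on it. The midpoint lay in the window from nucleotide 20 to 49 for 93.1% of WT (90.8 to 94.9) and 90.0% of *Mbnl1* KO tags (89.0 to 91.0). The window is 25.2% of the RNA. It was set on these same tags, so a share above its part of the RNA follows from that choice. Coverage was highest at nucleotide 34 in WT and 32 in *Mbnl1* KO, and the profiles had a Pearson correlation of 0.979 over 119 positions of the same RNA, which are not independent points. The *Mbnl1* KO profile rose nearer the 5′ end, and *Mbnl1* KO tags were longer, with a median of 31 nt against 25 nt in WT. The most frequent WT tag, of 23 nt, appeared as 90 WT and 76 *Mbnl1* KO tags. The most frequent *Mbnl1* KO tag, of 31 nt, overlaps its 5′ part and appeared as 46 and 267. A muscleblind word, CGCC, begins at nucleotide 26 inside the window, and the remaining words, CGCC at 92 and TGCT at 109, lie where few tags were found.

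**Figure D3:**
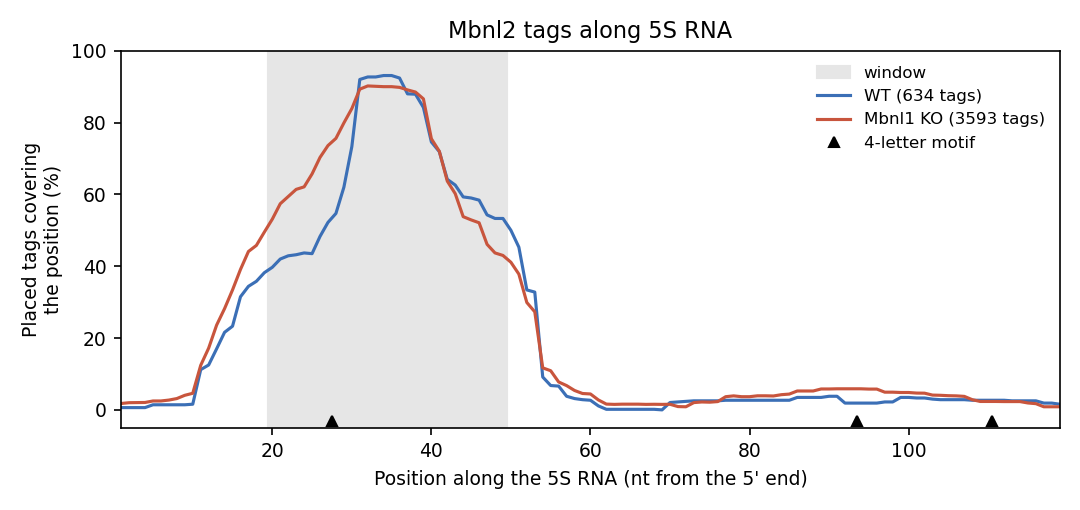
Share of placed 5S tags (%) that cover each position of the RNA in WT (634 tags) and *Mbnl1* KO (3593 tags) muscle. Shading marks the window from nucleotide 20 to 49 and triangles the 3 muscleblind words. Both curves have their summit in the window and fall off across its edges.

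What was counted changed the size of the 5S difference. A 5S tag matched the genome at many places, with a median of 48 exact copies of its sequence in WT and 46 in *Mbnl1* KO, and 1.97% of WT and 2.65% of *Mbnl1* KO array tags had a sequence found once. The same sequence was therefore listed as several tags at different copies. The array had 114 distinct sequences in WT and 276 in *Mbnl1* KO, so each stood for 5.34 tags in WT and 12.8 in *Mbnl1* KO. Counted as distinct sequences and scaled to those of the table (238446 in WT and 318204 in *Mbnl1* KO), 5S loci had 165 and 501 and a ratio of 2.28 (1.90 to 2.73), in place of 4.13 (3.81 to 4.48) by tags. By reads, 7915 and 170678 lay at 5S loci, a ratio of 2.22. 5S tags of a sequence found once in the genome, 44 in WT and 292 in *Mbnl1* KO, gave 4.78. Thinning the reads of *Mbnl1* KO to as many as in WT gave 4.23 by tags and 2.77 by distinct sequences. Scaled to tags on protein-coding exons, the ratio at 5S loci was 1.49, the lowest under any setting. All these values lie above 1 and their sizes differ. How reads were assigned among identical copies is not given in the sources used here, and its part in the result was not tested.

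**Figure D4:**
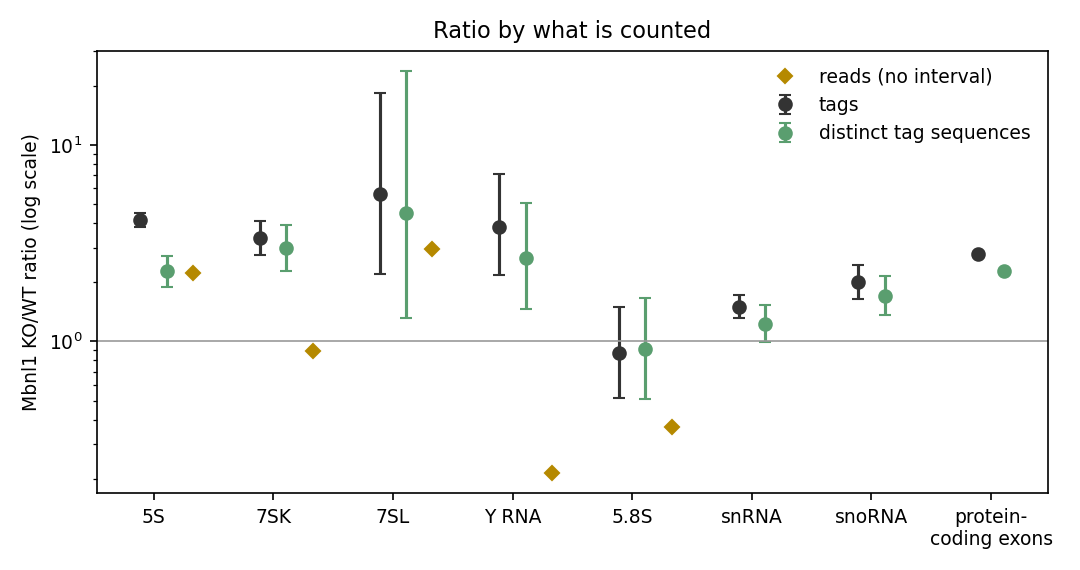
*Mbnl1* KO/WT ratio (log axis) at each RNA family and at 3 other classes, by tags, by distinct tag sequences (both with 95% intervals of counting error) and, for 5 families, by reads (no interval), 1 merged table per genotype. At 5S loci the ratio falls from 4.13 by tags to 2.28 by distinct sequences, where protein-coding exons also stand at 2.28, and 5.8S lies below 1 by each count with intervals by tags and by sequences that include 1.

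The 2 loci of 5.8S rRNA behaved otherwise. They had 28 WT and 34 *Mbnl1* KO tags together, 81.5 and 71.3 per 1000000, with a ratio of 0.875 (0.515 to 1.5), or 1.21 without scaling. n-R5-8s1 (minus strand of chromosome 18, 73693057 to 73693204) held 22 and 29 of them (0.95, 0.527 to 1.74), and 5_8S_rRNA on chromosome 6 (94776775 to 94776917) 6 and 5. The 5.8S value depended on the setting. Scaled to tags on protein-coding exons it was 0.316 (0.186 to 0.541) and with tags of at least 2 reads 0.452 (0.235 to 0.877), both with intervals below 1. With *Mbnl1* KO reads thinned to as many as in WT it was 1.65 (0.888 to 3.12), and 2.02 (1.03 to 3.96) at n-R5-8s1. No direction is read from it. Set against 5S, the ratio at 5.8S was 0.212 times as high (0.124 to 0.365), and by distinct sequences, 23 in WT and 28 in *Mbnl1* KO, 0.402 times (0.216 to 0.752). With thinned *Mbnl1* KO reads the contrast was smaller, at 1.65 (0.888 to 3.12) for 5.8S and 4.23 (3.85 to 4.65) for 5S by tags, and by distinct sequences the intervals overlapped, at 1.64 (0.821 to 3.29) and 2.77 (2.23 to 3.43). Unlike 5S tags, 96.4% of WT and 100% of *Mbnl1* KO tags here had a sequence found once in the genome. Tags of both genotypes lay mainly between nucleotides 67 and 89 of n-R5-8s1, with 21 of 22 placed WT tags and 26 of 29 placed *Mbnl1* KO tags. No muscleblind word lies in that stretch. The reads behind the tags, 2170 and 7724, gave a ratio of 0.366.

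At the 332 7SK loci 119 WT and 552 *Mbnl1* KO tags were counted, 346 and 1158 per 1000000, with a ratio of 3.34 (2.74 to 4.11). Rn7sk, the locus at the place of the functional gene (minus strand of chromosome 9, 78023110 to 78023440), held the most tags of any locus described here over both tables, 21 in WT (n-R5-8s1 had 22) and 121 in *Mbnl1* KO, and its ratio was 4.15 (2.60 to 6.95). Scaled to tags on protein-coding exons, the ratio was 1.21 (0.988 to 1.48) at all 7SK loci and 1.5 (0.938 to 2.51) at Rn7sk, both with intervals that include 1. The 331 copies, of which 80 had a tag, held 98 and 431 (3.17, 2.54 to 3.99). As for 5S, the copies rich in tags were those with the exact window. Rn7sk and 6 copies carry its 24 nt, with 7 to 21 WT and 18 to 121 *Mbnl1* KO tags each, whereas the 325 loci without it had at most 5 and 14. Among the 6 copies, that on chromosome 15 (plus strand, 93064794 to 93065131) had 10 and 49 tags (3.53, 1.77 to 7.82), that on chromosome 2 (minus strand, 6997140 to 6997460) 9 and 48 (3.84, 1.87 to 8.91), and that on chromosome X (minus strand, 149357996 to 149358303) 11 and 43 (2.82, 1.43 to 6.06). Tags of copies and of Rn7sk with the same sequence cannot be told apart. In Rn7sk 10 of 21 WT and 78 of 121 *Mbnl1* KO tags had a sequence found once in the genome, so a part of them belongs to Rn7sk by sequence.

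Tags that matched Rn7sk exactly, 84 in WT and 356 in *Mbnl1* KO, gathered between nucleotides 198 and 221, with 64.3% of WT (53.1 to 74.4) and 58.4% of *Mbnl1* KO midpoints (53.1 to 63.6). The window is 7.25% of the RNA and holds 2 of its 7 muscleblind words, CGCT at nucleotide 206 and TGCT at 214. It was set on these same tags, so a share above its part of the RNA follows from that choice. Nucleotide 214 was the summit in both tables, covered by 59 WT and 229 *Mbnl1* KO tags. A lower shoulder in the 3′ direction was present in both, and 83.3% of WT and 93.3% of *Mbnl1* KO tags lay in the part of the RNA 3′ of its middle. Tags are written in capitals, 5′ to 3′. The tag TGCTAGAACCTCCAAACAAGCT, which begins at the summit, appeared as 5 WT and 19 *Mbnl1* KO tags, and TAGCTGCGCTCCCCTGCTAGAA as 6 and 6. TACGAGTAGCTGCGCTCCCCT appeared as 5 and 0. The longer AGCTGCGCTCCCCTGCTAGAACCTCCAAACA spans both words and appeared as 0 and 18. By distinct sequences 7SK gave 69 and 274 and a ratio of 2.98 (2.28 to 3.93). By reads the direction turned, with 4137 WT and 35864 *Mbnl1* KO reads and a ratio of 0.892, which came from Rn7sk, where 2658 and 10321 reads gave 0.399. The 331 copies, with 1479 and 25543 reads, had a reads ratio of 1.78, on the same side as their tags. Reads per tag averaged 34.8 in WT and 65.0 in *Mbnl1* KO at 7SK, against 15.1 and 106 over the whole tables.

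**Figure D5:**
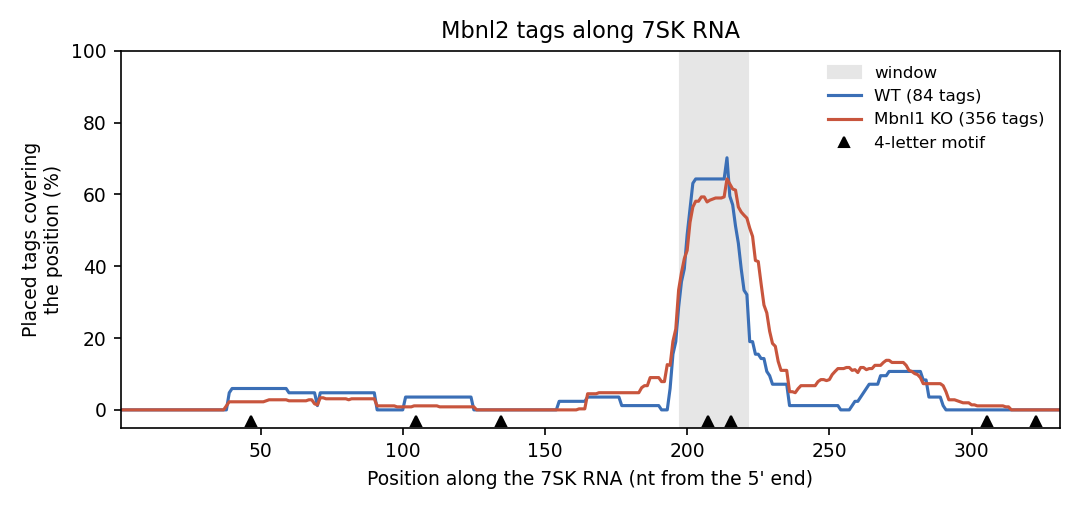
Share of placed 7SK tags (%) that cover each position of the RNA in WT (84 tags) and *Mbnl1* KO (356 tags) muscle. Shading marks the window from nucleotide 198 to 221 and triangles the 7 muscleblind words, 2 of which fall in the window with the summit at nucleotide 214.

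7SL RNA, although abundant in most cells, had few tags. Its 14 loci held 5 WT and 39 *Mbnl1* KO tags, 14.6 and 81.8 per 1000000, with a ratio of 5.62 (2.21 to 18.3). The interval includes 1 when scaled to tags on protein-coding exons (2.03, 0.799 to 6.59) and with tags of at least 2 reads (3.73, 0.907 to 32.9). Rn7s1 (AC099934.1) had 2 and 13, and Rn7s2 (AC157822.1, minus strand of chromosome 12, 70462172 to 70462468) 1 and 12. Since their sequences are identical these are best read together, as 3 and 25 tags and a ratio of 6.01 (1.83 to 31.1). The 12 copies had 2 and 14 (5.05, 1.16 to 45.7). The WT tags lay mostly in the Alu-like 5′ part, where 1 tag sequence of 22 nt appeared as 3 WT and 4 *Mbnl1* KO tags. In *Mbnl1* KO 6 of 34 placed tags lay there. The *Mbnl1* KO summit was the single nucleotide 243, with 11 tags, between 8 at nucleotide 242 and 6 at 244. A broader stretch, from nucleotide 213 to 230, had 10 tags at each position. Muscleblind words begin at 223 (TGCT) and 244 (CGCC). The profiles had a correlation of 0.332 over 297 positions, and with 5 WT tags a shift in position was not detectable at this depth. The window of 7SL, from nucleotide 22 to 43, therefore rests on 3 WT and 6 *Mbnl1* KO tags only.

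The 25 Y RNA loci held 15 WT and 79 *Mbnl1* KO tags, 43.7 and 166 per 1000000, and a ratio of 3.8 (2.17 to 7.10). For the family the interval includes 1 when scaled to tags on protein-coding exons (1.37, 0.782 to 2.56) and with tags of at least 2 reads (1.68, 0.835 to 3.74). Rny3 had 9 and 32 tags (2.56, 1.20 to 6.11, and 0.925 when scaled to tags on protein-coding exons) and Rny1 4 and 28 (5.05, 1.77 to 19.8). Both intervals lay above 1 with this scaling but not with every setting. For Rny1 the ratio was 1.82 (0.637 to 7.14) when scaled to exon tags and 1.59 (0.517 to 6.48) with tags of at least 2 reads, and for Rny3 it was 1.75 (0.816 to 4.17) without single-base tags and 1.31 (0.510 to 3.96) with at least 2 reads. Unlike those of 5S, nearly all tags here had a sequence found once in the genome, 14 of 15 in WT and 78 of 79 in *Mbnl1* KO. Tags gathered in the 3′ part of both RNAs. In Rny3, 7 of 9 WT and 28 of 32 *Mbnl1* KO tags lay between nucleotides 58 and 83, which hold a CGCT at 72. In Rny1, 4 of 4 and 18 of 28 lay between 73 and 97, and Rny1 contains no muscleblind word at all. The 23 other Y RNA loci had 2 and 19 tags. Counted by distinct sequences the family had 15 and 53 (2.65, 1.47 to 5.06). Reads went the other way, 1827 in WT and 3807 in *Mbnl1* KO, a ratio of 0.214, and single tags dominated them: the Rny3 tag TCTTTGTTCCTTCTCCGCTC stood for 1107 of 1612 WT reads at the locus and for 2 of 1626 *Mbnl1* KO reads.

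The remaining misc_RNA loci had few tags or none. Rmrp, the RNA of RNase MRP, which processes ribosomal RNA precursors, had 2 WT and 5 *Mbnl1* KO tags (1.80, 0.295 to 18.9). 1 of the 2 vault RNA loci had 1 and 4 (2.88, 0.285 to 142). The loci of RNase P RNA (20, among them Rpph1), telomerase RNA (2, among them Terc), NRON, HAR1F and the CPEB3 ribozyme had 0 tags in both tables, for which the 95% Clopper-Pearson interval of each family reaches 10.7 tags per 1000000 in WT and 7.74 in *Mbnl1* KO (a floor of 3 tags is 8.73 and 6.30). The 87 loci without a match had 9 and 4 tags (0.320, 0.0721 to 1.15), of which 7 and 3 were single-base tags. All misc_RNA loci other than 7SK and 7SL, Y RNAs included, together had 27 and 92 tags and a ratio of 2.46 (1.58 to 3.93), or 0.886 when scaled to tags on protein-coding exons. The Y RNAs carried that difference: the other 116 loci had 12 and 13 tags and a ratio of 0.781 (0.329 to 1.87).

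Other small RNA classes were counted in the same way to see where the rRNA and misc_RNA loci differ. The 1423 snRNA loci, whose RNAs build the spliceosome, had 305 WT and 636 *Mbnl1* KO tags and a ratio of 1.5 (1.31 to 1.73). The 1552 snoRNA loci, whose RNAs guide modification of rRNA, had 144 and 400 (2.0, 1.65 to 2.44). The ratio at the rRNA and misc_RNA loci was 2.58 times that at snRNA loci (2.20 to 3.02) and 1.94 times that at snoRNA loci (1.57 to 2.38), and both of these comparisons do not depend on the scaling. The 8 snRNA loci with at least 10 tags had 0 to 3 WT and 7 to 11 *Mbnl1* KO tags each, so they met the minimum mainly through *Mbnl1* KO. Their median ratio, 6.49, lies above the 4.21 of the loci described here, the other way from the pooled ratios. No order is read from these medians. The 1415 snRNA loci under the minimum had 294 and 561 tags (1.38, 1.19 to 1.59). The 2 mitochondrial rRNA genes, with 304 and 1293 tags, had a ratio of 3.07 (2.70 to 3.49), and the rRNA and misc_RNA loci stood 1.27 times higher by tags (1.09 to 1.46) and 1.01 times by distinct sequences (0.826 to 1.24). Against snRNA and snoRNA loci the factors by distinct sequences were smaller, 1.87 (1.45 to 2.42) and 1.35 (1.03 to 1.77). Exons of protein-coding genes had 21372 and 82186 tags and a ratio of 2.77 (2.73 to 2.81). The rRNA and misc_RNA loci stood 1.40 times higher by tags (1.30 to 1.51), but 1.01 times (0.885 to 1.16) by distinct sequences, so that a difference from exons was found by one count and not by the other. Between the families, the ratio at 5S was 1.24 times that at 7SK (0.989 to 1.53) by tags and 0.765 times (0.548 to 1.06) by distinct sequences, so that the direction turned and both intervals include 1.

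The muscleblind words were frequent in some of these tags and rare in others. Single-base tags were left out when words in tags and pyrimidine ends were counted, unlike in the ratios above. In 7SK tags they occurred 5.15 times per 100 nt in WT and 4.61 in *Mbnl1* KO, above the 3.47 and 3.11 of tags on protein-coding exons. 5S tags had 1.95 and 2.71, Y RNA tags 3.02 and 1.83, and 5.8S tags 0.144 and 0, while snRNA tags had 0.211 and 0.518 and snoRNA tags 1.64 and 1.15. At least 1 of the words, searched on the RNA strand only, is present in 88.0% of the rRNA and misc_RNA loci, 77.7% of snRNA loci and 83.1% of snoRNA loci, so their presence in a locus says little. Rny1, which holds no word, had a ratio of 5.05, and n-R5-8s1, whose window holds none, one of 0.95. Tags at the loci described here had a median length of 24 nt in WT and 28 nt in *Mbnl1* KO. Among those under 31 nt, 66.3% of WT and 80.6% of *Mbnl1* KO tags ended in a pyrimidine, the base after which RNase A cuts. The shares were 63.8% and 75.1% on protein-coding exons, and went the other way at snRNA (87.4% and 76.8%) and snoRNA loci (65.9% and 43.8%). The genotypes shared 145 distinct tag sequences, 50.5% of the 287 in WT and 16.4% of the 884 in *Mbnl1* KO.

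Genes for the proteins that bind or make these RNAs were counted over the gene body on their strand. Of 49 listed genes 48 were found in the annotation, and together they had 150 WT and 369 *Mbnl1* KO tags and a ratio of 1.77 (1.46 to 2.16), near the median of 1.68 over all genes with 10 tags. Of the 16 with at least 10 tags, 7 were at least 2-fold higher in *Mbnl1* KO and 1, Rpl11 (6 and 4 tags), at least 2-fold lower, beside 39.6% and 6.95% of all genes. The genes of the signal recognition particle and its receptor had 39 and 154 tags (2.85, 1.99 to 4.16). Srp14, which with Srp9 binds the Alu part of 7SL, had 5 and 52 (7.50, 3.02 to 24.1), and Srp72 3 and 22 (5.29, 1.59 to 27.6). At Srpr, a subunit of the receptor, the tags were 8 and 24 (2.16, 0.940 to 5.57). The near-identical genes Srp54b (9 and 23) and Srp54c (8 and 14) may share tags. In the 7SK particle, with 19 and 51 tags (1.94, 1.12 to 3.47), the cyclins carried most of them, Ccnt1 with 6 and 23 (2.76, 1.09 to 8.30) and Ccnt2 with 6 and 20 (2.40, 0.931 to 7.31). Trove2, the Ro60 gene, had 5 and 16 (2.31, 0.808 to 8.05). RNA polymerase III genes gave 49 and 77 tags and a ratio of 1.13 (0.782 to 1.66), among them Polr3e with 15 and 33 (1.59, 0.838 to 3.14), Brf1 with 12 and 16 (0.961, 0.427 to 2.23) and Polr3b with 14 and 11 (0.566, 0.233 to 1.34). Vault protein genes had 19 and 33 (1.25, 0.691 to 2.33), with Parp4 at 11 and 16. The 5S particle list had 7 and 12 tags and the RNase P and MRP list 9 and 13, too few to separate the libraries.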

How the data were processed

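Mbnl2 HITS-CLIP tags of quadriceps muscle from WT and *Mbnl1* KO mice were analysed. Per the methods, the authors removed low-quality reads, aligned the rest to mm9 with BWA (both also in the submitters' processing notes, without a version), discarded short sequences and collapsed potential PCR duplicates. The deposited tables list 1 unique tag per row with its count of collapsed reads, without normalization, for 3 mice merged per genotype (343554 WT and 476543 *Mbnl1* KO tags). Precision at a locus is set by its tags, as the intervals show.

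A tag counted when it overlapped the locus on its strand, once per group of loci, in the mm9 GENCODE vM1 annotation. Ratios were scaled to the tags of the table, with exact Clopper-Pearson limits at 95%, and ratios of 2 classes have exact conditional limits of the odds ratio. No test between genotypes was possible. Loci without a telling name were assigned to a family by BLAST 2.17.0 (expectation value 1e-5), and standard names (Rn7sk, Rn7s1, Rn7s2, Rny1, Rny3, Rmrp, Terc, Rpph1) by neighbouring genes in the RefSeq gene table (GRCm38.p6), from which names alone were taken. Sequences were read from mm9 with samtools 1.23.1 and pysam 0.24.0. Some sequences are not reported here. Exact copies of each tag sequence were counted over both strands of the assembled chromosomes. Python 3.11.15, numpy 2.4.6, pandas 2.3.3, scipy 1.17.1, numba 0.67.0 and matplotlib 3.10.9 were used, and the interval code was tested on simulated data. For families with 0 tags the upper Clopper-Pearson limit was given, and for the floor 3 counts were divided by the tags of the table.

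Loci named were drawn from those with a standard name, the 10 with the most tags, and the 5 highest and 5 lowest ratios among loci with at least 10 tags. Some of these are not named. Partner genes named are those with at least 20 tags. Array copies with a different window, n-R5s118, n-R5s114, n-R5s40, the dispersed loci with the exact window, and Rpl11 were added after their values were seen. The members, lists and rules were chosen with earlier results of these data known. Alternatives covered scaling (none, outside chromosome M, exon tags), single-base, 1-read and short tags, collapsed positions, single-copy sequences, overlap rules, reads and thinned reads, and, chosen after the data were seen, distinct sequences and combinations.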

Additional observations from a re-analysis of the deposited data

Results flagged for a closer look

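Tags on the strand opposite to the loci, which none of the comparisons used, numbered 34 in *Mbnl1* KO against 13 in WT, a ratio of 1.89 (0.970 to 3.89). They were few beside the 4768 and 886 tags on the strand of the loci. Of these, 33 and 13 lay at misc_RNA loci, with 27 and 12 at 7SK copies, and 5S loci had 1 and 0. The interval includes 1, and the source of these tags was not tested.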

How the results depend on the processing

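Of 106 values of the grouped ratios, of their difference from snRNA loci and of the count of 2-fold loci under other settings, 62 lay within the interval of the value reported (for the count, within 1.5 times of it). The ratios given here are, in order, those at all loci, at rRNA and at 7SK loci unless named. Raw tags gave 5.38, 5.56 and 4.64. Scaling to tags on protein-coding exons, which divides every ratio by 2.77, gave 1.40, 1.45, 1.21, 2.03 at 7SL and, below 1, 0.886 at other misc_RNA loci, 0.925 at Rny3 and, among loci whose reported interval includes 1, 0.455 at n-R5s162, 0.669 and 0.728 at the 7SK copies of chromosomes 14 and 7 and 0.650 at Rmrp. Single-base tags left out gave 2.67, 2.74 and 2.27, and tags of at least 2 reads 2.69, 2.78, 2.50 and 1.39 at other misc_RNA loci. Collapsing tags at the same position gave 2.99 and 3.05, with 1.96 for the difference from snRNA loci, and collapsing the same 5′ end 2.26, 2.26, 2.29, 1.52 at other misc_RNA loci and 1.5 for the difference. Single-copy sequences gave 3.31 at rRNA and 4.53 at 7SK loci. Thinned *Mbnl1* KO reads gave 3.09 for the difference and moved 5.8S to 1.65 and n-R5-8s1 to 2.02. Counting reads gave 1.39 and 1.82, and turned the direction at 7SK (0.892), other misc_RNA loci (0.197), Y RNA (0.214), Rn7sk (0.399), n-R5s103 (0.731), n-R5s107 (0.328), Rny3 (0.104) and Rny1 (0.961), and, where the reported interval includes 1, gave 0.0152 at Rmrp, 0.411 and 0.742 at the 7SK copies of chromosomes 7 and 14 and 0.231 at n-R5s162. Distinct sequences, chosen after the data were seen, gave 2.31 and 2.11 with 1.87 for the difference. With thinned *Mbnl1* KO reads they gave 2.84, 2.63 and 3.47, with 2.20 for the difference. Without single-base tags they gave 1.81, 1.63 and 2.26, with 1.91 for the difference. Without single-base tags and with at least 2 reads the ratios were 2.26, 2.33, 2.09 and 1.23 at other misc_RNA loci. The cause of these shifts was not tested beyond what each scaling does by construction. At least 2-fold higher were 84 loci, against 106 with a minimum of 5 tags, 65 with 20 and 85 at 1.5-fold. This count was not repeated with another scaling. For the named loci and families, 388 of 494 values lay within the interval reported, 99 outside it and 7 turned direction where the reported interval excludes 1. Where it includes 1, which holds for 7 of these results, 30 of 121 values, from 6 of the 7, lay on the other side of 1 from the value reported. No value could be given for 7SL from single-copy sequences, as WT had 0 such tags. No paired analysis was possible because the mice of each genotype are merged, which also meant that leaving out a mouse was not possible.

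Tags of 5S, 7SK and 7SL cannot be placed among identical copies. The 5 WT tags of 7SL, 4 of Rny1 and 2 of Rmrp limit those ratios. Without a library lacking Mbnl2 and without RNA levels, tags that came without the protein and differences in RNA amount cannot be told apart from binding, and genotype cannot be told apart from library.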

Other observations

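Reads were spread over identical 5S copies far less evenly than tags. In WT, n-R5s107 and n-R5s149 have the same sequence and 16 tags each, but stood for 1391 and 28 reads. In *Mbnl1* KO both had 80 tags, with 4442 and 2080 reads. Within 5S, the 98 WT tags of the dispersed loci rested on 325 reads and the 609 of the array on 7590, while the *Mbnl1* KO figures were 507 tags on 17311 reads and 3544 on 153367. The reads ratio was 5.48 outside the array and 2.08 in it, with tag ratios of 3.73 and 4.20. A single dispersed locus, n-R5s40, held 9508 of the 17311 *Mbnl1* KO reads on 11 tags, against 5 WT reads on 3 tags. Left out, a choice made after the data were seen, the dispersed loci had 320 and 7803 reads and a reads ratio of 2.51, and a tag ratio of 3.76.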
